A study of Mus musculus with 12 samples.

Results

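RNA levels of 41 genes that act in DNA replication and S phase were examined in 12 libraries of mouse embryonic fibroblasts (MEFs). The members were the rows of the count table whose Ensembl identifiers mapped to a list of symbols, and all 41 were found among 55573 genes. The cells were labelled C57BL/6 and came from 3 embryos of stage E13.5. All of them, uninduced cells included, carried a cassette (i4F, per the study's methods) from which doxycycline induces the reprogramming factors Oct4, Klf4, Sox2 and Myc, together named OSKM. Each embryo gave 1 culture, called clone 1, 2 or 3, and 1 library in each of 4 groups. The groups were MEF (no doxycycline, no added B12), MEF + B12 (vitamin B12 at 2 µM), OSKM (doxycycline at 1 µg/ml) and OSKM + B12 (both). All cells were collected at 72 h in a medium for induced pluripotent stem cells. Because doxycycline was given only to induced cells, effects of the drug and of the factors cannot be told apart. The titles of clone 1 libraries carry a later year than those of clones 2 and 3, so that the embryo and the year cannot be told apart either.

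Before a cell copies its DNA, the origin recognition complex, Cdc6 and Cdt1 load the MCM2-7 helicase onto origins, a step called licensing. Cyclin E and other kinase signals, with Mcm10, Cdc45 and the GINS complex, then turn the loaded helicase into a moving fork, where primase and polymerase alpha start each strand, the clamp loader RFC sets the sliding clamp PCNA, and polymerases delta and epsilon extend. Fen1 and Lig1 process and seal Okazaki fragments, ribonucleotide reductase and thymidine kinase supply deoxynucleotides, and the factor CAF-1 places histones on the new DNA. Many of these genes are targets of E2F transcription factors and are transcribed around the entry into S phase, so in a culture their RNA reflects in part the share of cycling cells.

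Counted read pairs per library ranged from 56971244 to 79236795. Oct4 (Pou5f1) was at 19.4, 18.5 and 2.86 CPM (counts per 1e6 counted pairs, with TMM scaling) in OSKM clones 1, 2 and 3 and at most 0.468 CPM in the 6 uninduced libraries, so the induced libraries of clone 3 had less of it than those of the other clones. Sox2 was at 15.5, 13.3 and 2.33 CPM in OSKM and at most 0.838 CPM in uninduced libraries, and Myc was at 53.4, 44.0 and 20.05 CPM in OSKM against 22.5, 16.4 and 18.6 in MEF. Klf4 went the other way, with 139, 143 and 124 CPM in MEF and 121, 122 and 119 in OSKM, and fell on induction by 0.12 ± 0.03 on the log2 scale (edgeR, adjusted p = 0.0452). Fibroblast markers such as Col1a1 were abundant in every library, with a summed level over 12 markers of at least 9.428e+04 CPM. The 11 macrophage markers summed to between 1179 and 3002 CPM, and none of the 11 had a group mean of 0. In bulk RNA a change in the number of cells of a type and a change in RNA per cell cannot be told apart.

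The promoters of the members were searched for 3 kinds of letters in RefSeq windows (GRCm38.p6) of 250 bases before to 50 bases after the start, on both strands. Windows were found for 32 of the 41 members, and not for Mcm4, Gins1, Gins2, Gins4, Rfc2, Pole, Prim2, Ccne2 and Tipin. The start of a window was not always the annotated gene start: the nearest was 539 bases away in Mcm7, 466 in E2f1 and 350 in Cdc6. For genes with more than 1 window, letters in any of them counted. Letters of an E2F site (TTTGGCGC, TTTCCCGC, TTTGCCGC or TTTCGCGC) were in the windows of 12 of 32 members, or 37.5%, against 2.60% of 27025 genes. Those are all genes with a window, whether or not they were tested here. CCAAT, the letters bound by the factor NF-Y, was in 62.5% of members against 41.1% of the 27025 genes. The letters of the cell cycle element CHR (TTTGAA or TTCGAA), found at many mitosis genes, were in 18.8% of members against 21.7% of the 27025 genes. The 160 bases before the start are shown for 4 members, because Mcm5 and Cdt1 rose with B12, Mcm6 has the most E2F letters and Pola1 has an E2F site and a CCAAT box. Capitals mark E2F letters and CCAAT boxes or their reverse complements (GCGCCAAA and GCGCGAAA, and ATTGG).
Mcm5, chr8:75109349-75109508, plus strand: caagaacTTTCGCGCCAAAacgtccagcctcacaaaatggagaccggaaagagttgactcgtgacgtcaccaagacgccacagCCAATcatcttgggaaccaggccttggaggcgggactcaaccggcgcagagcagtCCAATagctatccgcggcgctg
Mcm6, chr1:128359706-128359865, minus strand: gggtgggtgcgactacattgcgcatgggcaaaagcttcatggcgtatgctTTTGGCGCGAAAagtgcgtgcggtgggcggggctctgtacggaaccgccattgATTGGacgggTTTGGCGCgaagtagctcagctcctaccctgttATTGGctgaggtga
Cdt1, chr8:122567855-122568014, plus strand: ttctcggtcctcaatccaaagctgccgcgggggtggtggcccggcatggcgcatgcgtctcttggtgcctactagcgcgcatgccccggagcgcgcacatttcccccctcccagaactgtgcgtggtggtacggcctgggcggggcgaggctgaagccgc
Pola1, chrX:93632156-93632315, minus strand: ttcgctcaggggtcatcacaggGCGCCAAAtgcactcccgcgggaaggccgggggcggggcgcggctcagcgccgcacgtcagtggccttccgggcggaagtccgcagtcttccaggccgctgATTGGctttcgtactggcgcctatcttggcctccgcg
In Mcm5, TTTCGCGC starts 153 bases before the start and overlaps GCGCCAAA, which starts at 149 bases. In Mcm6, an overlapping pair starts at 110 and 106 bases and a single TTTGGCGC at 47 bases before the start. Pola1 has GCGCCAAA at 138 bases. The stretch of Cdt1 has none of these letters, and its only E2F letters start at base 33 of the transcript. A match of letters describes the sequence and is not evidence of a bound site.

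Per length of annotated exon, the members spanned 42.2-fold in mean level, from 45.5 RPKM (CPM per kilobase) for Pcna to 1.08 RPKM for Orc1, with a median of 6.10. The helicase subunits Mcm6 (23.8 RPKM), Mcm4 (18.6) and Mcm3 (16.9) were among the 6 highest members, with the reductase subunit Rrm2 (19.3) and the GINS subunit Gins4 (18.9) between them. The 6 MCM2-7 genes were not equal in level, and Mcm2, at 8.79 RPKM, was the lowest of them. At the other end were the licensing factors Orc1 and Cdc6 (1.54 RPKM), the helicase activator Mcm10 (1.30) and the polymerase epsilon catalytic subunit Pole (1.48). Even Orc1 had at least 190 counts in each library. The members varied little over the 12 libraries: the highest library exceeded the lowest by 1.13-fold in Rrm1, by 1.89-fold in Ccne2 and by a median of 1.31-fold.

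**Figure D1:**
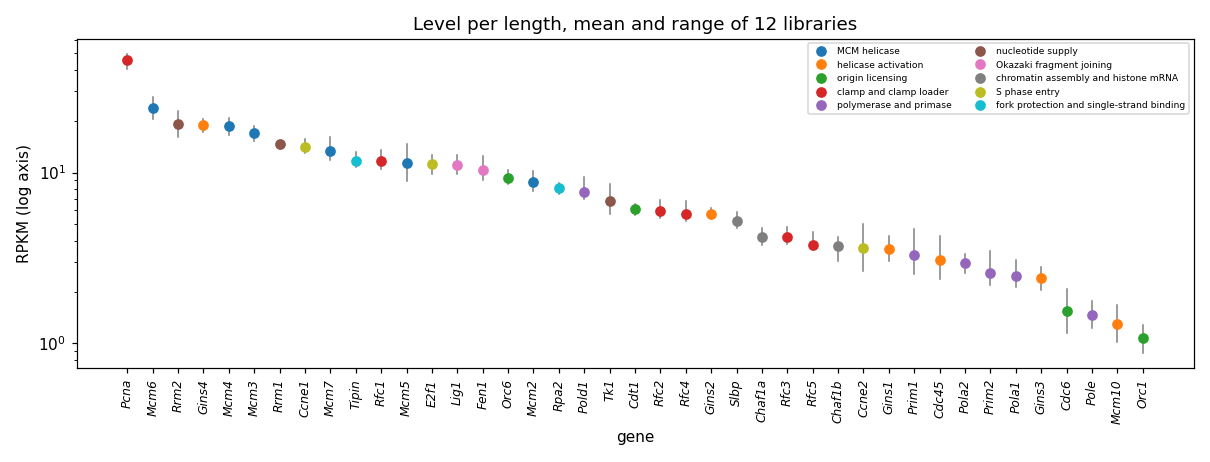
Mean level per exon length (RPKM, log axis) of the 41 members over 12 libraries, ordered from highest to lowest, with grey lines from the lowest to the highest library and colours for the role. Pcna stands at 45.5 RPKM and Orc1 at 1.08 RPKM, and the lines are short beside the distance between genes.

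The first question was whether added B12 changed the replication genes. Averaged over uninduced and induced cells, 4 of 41 members rose with B12 and none fell: the helicase subunit Mcm5 by 18.2%, the flap endonuclease Fen1 by 18.9%, the sliding clamp Pcna by 12.4% and the licensing factor Cdt1 by 10.5%. Over all 19174 genes tested, 736 passed the same test (edgeR's quasi-likelihood F test, adjusted p under 0.05), which is 3.84%. Of those 736 genes, 663 rose and 73 fell, so calls with B12 were mostly rises over all genes too. Changes of the other 37 members lay between −0.06 (Gins4) and 0.23 (Cdc6) on the log2 scale, and the lowest adjusted p among them was 0.0511. The median log2 fold change of the members was 0.056, against −0.013 for all genes tested. A total of 11 members were higher with B12 in all 6 pairs of libraries from the same clone and state (Mcm3, Mcm5, Mcm6, Cdc6, Cdt1, Orc1, Gins3, Pcna, Tk1, Lig1 and Fen1), or 26.8% of members against 8% of all genes. No member was lower in all 6 pairs, against 7.64% of all genes.

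**Figure D2:**
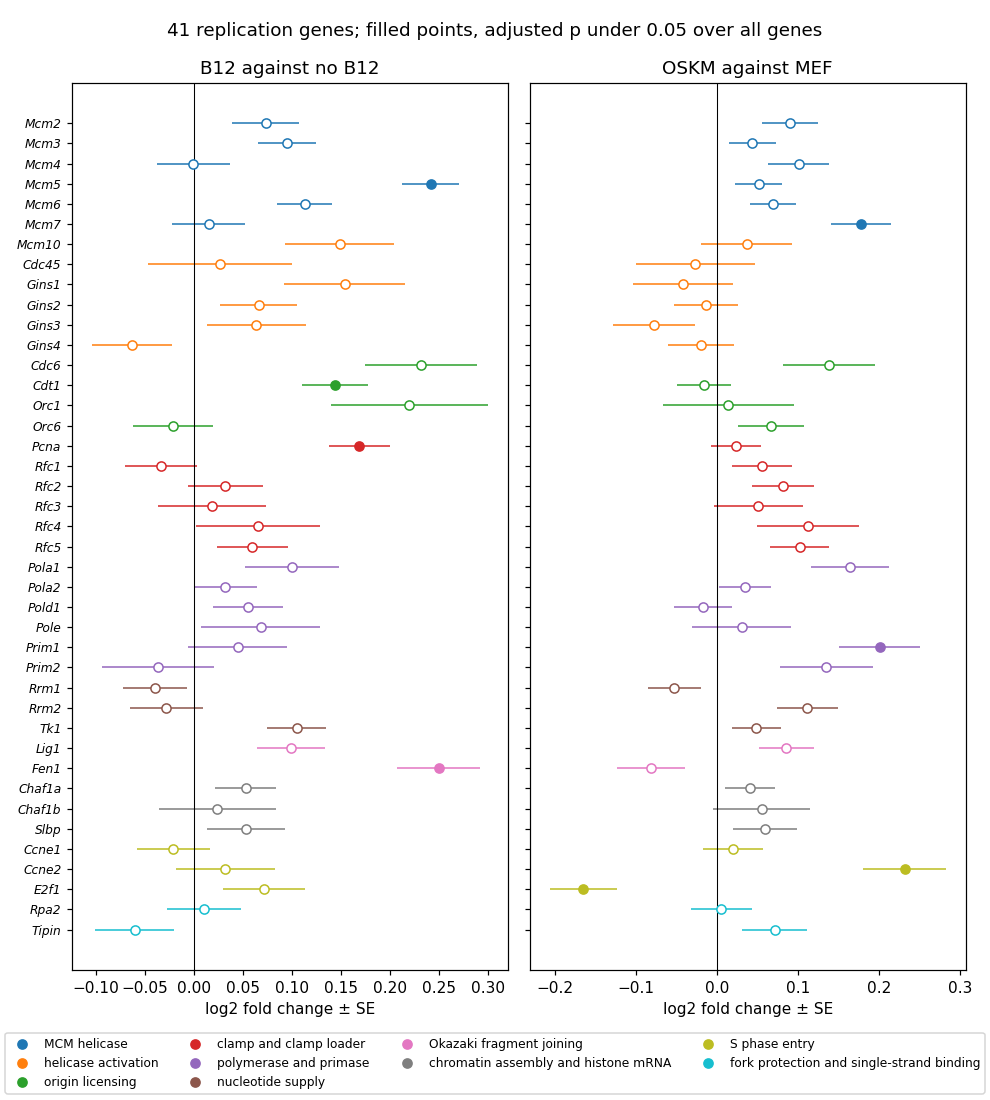
Log2 fold change ± SE of each member with B12 (left, averaged over uninduced and induced cells) and with induction (right, averaged over both B12 states), coloured by role, with filled points where the adjusted p was under 0.05. The 4 filled points on the left (Mcm5, Cdt1, Pcna, Fen1) are all above 0, and on the right Mcm7, Prim1 and Ccne2 are above 0 and E2f1 below 0.

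Mcm5 (ENSMUSG00000005410, chr8:75109569-75128439 in GRCm38), a subunit of the replicative helicase, had the lowest adjusted p of the members. In clones 1, 2 and 3, in that order here and below, it was at 47.9, 39.1 and 35.8 CPM in MEF, 57.2, 44.9 and 43.2 in MEF + B12, 47.9, 40.7 and 38.4 in OSKM, and 58.5, 46.9 and 44.8 on induction with B12. The groups overlapped because clone 1 was highest throughout, but within each clone the library with B12 was higher. The averaged difference was 0.24 ± 0.03 on the log2 scale (± is the SE throughout), with an adjusted p of 0.0009. Mcm5 was the only member to pass in either state alone in edgeR, with 0.24 ± 0.04 in uninduced cells (adjusted p = 0.0174, against 1.38% of all genes called) and 0.24 ± 0.04 in induced cells (adjusted p = 0.022, against 1.06% of all genes). With any 1 clone left out, or without the block for clone, neither call held: without a clone the adjusted p was between 0.0719 and 0.436 in uninduced cells and between 0.134 and 0.496 in induced cells. In induced cells the call was also lost without the OSKM library of clone 1 (0.21, adjusted p = 0.052) and when only the libraries compared were fitted (0.24, adjusted p = 0.155). DESeq2 called Mcm5 in both states, as well as Fen1 in both and Pcna in uninduced cells, against 2.45% of all genes in uninduced and 2.02% in induced cells. Without clone 2 the averaged difference of Mcm5 was 0.26, with an adjusted p of 0.0724.

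Fen1 (ENSMUSG00000024742, chr19:10199132-10204169), the nuclease that trims Okazaki fragments, was at 26.3, 22.3 and 22.0 CPM in MEF, 30.3, 26.8 and 26.4 in MEF + B12, 21.9, 21.8 and 22.5 in OSKM, and 26.9, 26.1 and 26.2 on induction with B12. Libraries with and without B12 did not overlap within either state. In uninduced cells the gap was narrow, from 26.26 CPM in MEF of clone 1 to 26.35 CPM in MEF + B12 of clone 3. The averaged difference was 0.25 ± 0.04 (adjusted p = 0.00661). It was 0.24 without clone 2 and 0.27 without clone 3, with adjusted p-values of 0.218 and 0.0609. Its partner Lig1, the ligase that seals the fragments, was at 46.8, 42.5 and 43.8 CPM in MEF, 51.5, 44.4 and 44.2 in MEF + B12, 53.2, 41.8 and 44.1 in OSKM, and 54.1, 48.6 and 48.7 on induction with B12. Lig1 was higher with B12 in 6 of 6 pairs, but its difference of 0.10 ± 0.03 did not pass (adjusted p = 0.176).

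Pcna (ENSMUSG00000027342, chr2:132249162-132253314), the clamp that holds polymerases on DNA, was at 105, 102 and 97.5 CPM in MEF, 118, 115 and 112 in MEF + B12, 114, 100.4 and 98.1 in OSKM, and 119, 117 and 111 on induction with B12. The uninduced groups did not overlap, while in induced cells the clone 1 library without B12 lay above the clone 3 library with it. The averaged difference was 0.17 ± 0.03 (adjusted p = 0.0105), and it did not pass without clone 2 (0.15, adjusted p = 0.298) or without clone 3 (0.17, adjusted p = 0.126). Of the 31-base words of Pcna, 23.3% also occur in other genes, mostly the pseudogene Pcna-ps2, so its counts are uncertain. The clamp loader subunits Rfc1 to Rfc5 had differences with B12 between −0.03 (Rfc1) and 0.07 (Rfc4), and none passed.

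Cdt1 (ENSMUSG00000006585, chr8:122568015-122573554), which brings the helicase to origins, was chosen for a full account after its values were seen, as was E2f1. It was at 17.7, 18.4 and 18.5 CPM in MEF, 19.9, 20.5 and 20.6 in MEF + B12, 18, 18.1 and 18.5 in OSKM, and 20.3, 19.4 and 20.03 on induction with B12. Its libraries with B12 all lay above those without it, and no clone stood apart. The averaged difference was 0.14 ± 0.03 (adjusted p = 0.0399). With any 1 clone left out the adjusted p was between 0.187 and 0.361, at differences of 0.13 to 0.16. It did not pass in DESeq2 (0.14, adjusted p = 0.0554) or with no filter on low counts (0.14, adjusted p = 0.142) either. The inhibitor of Cdt1, geminin (Gmnn, no member), also rose, by 0.30 ± 0.05 (adjusted p = 0.0104). Cdc6, the ATPase that loads the helicase with Cdt1, was at 8.99, 6.06 and 6.09 CPM in MEF, 10.3, 6.99 and 7.55 in MEF + B12, 9.97, 6.81 and 6.61 in OSKM, and 10.9, 8.85 and 7.37 on induction with B12. Cdc6 was higher in 6 of 6 pairs, by 0.23 ± 0.06, with an adjusted p of 0.0511, and passed with DESeq2 (adjusted p = 0.0338). Orc1, the largest subunit of the origin recognition complex, had 0.22 ± 0.08 (adjusted p = 0.202), and Orc6 had −0.02 ± 0.04.

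The MCM2-7 subunits, which act as 1 ring, differed in their values with B12. Mcm6 was at 115, 97.8 and 95.9 CPM in MEF, 128, 108 and 106 in MEF + B12, 127, 105 and 100.5 in OSKM, and 128, 113 and 109 on induction with B12. Mcm3 was at 63.0, 59.3 and 57.7 CPM in MEF, 70.5, 64.0 and 60.9 in MEF + B12, 65.2, 64.3 and 59.0 in OSKM, and 70.5, 64.5 and 63.3 on induction with B12. Both were higher with B12 in 6 of 6 pairs, by 0.11 ± 0.03 (adjusted p = 0.0515) and 0.10 ± 0.03 (adjusted p = 0.128). Mcm6 passed with DESeq2, with library totals, with at least 10 counts in every library and without the OSKM library of clone 1. Those fits called 4.03% to 4.87% of all genes. Mcm6 did not pass with DESeq2 size factors, with no filter, without the block for clone or with any 1 clone left out. Mcm2 had 0.07 ± 0.03 and Mcm7 0.02 ± 0.04. Mcm4, at −0.0002 ± 0.04, was higher in 3 of 6 pairs. No test of the difference between subunits was made.

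**Figure D3:**
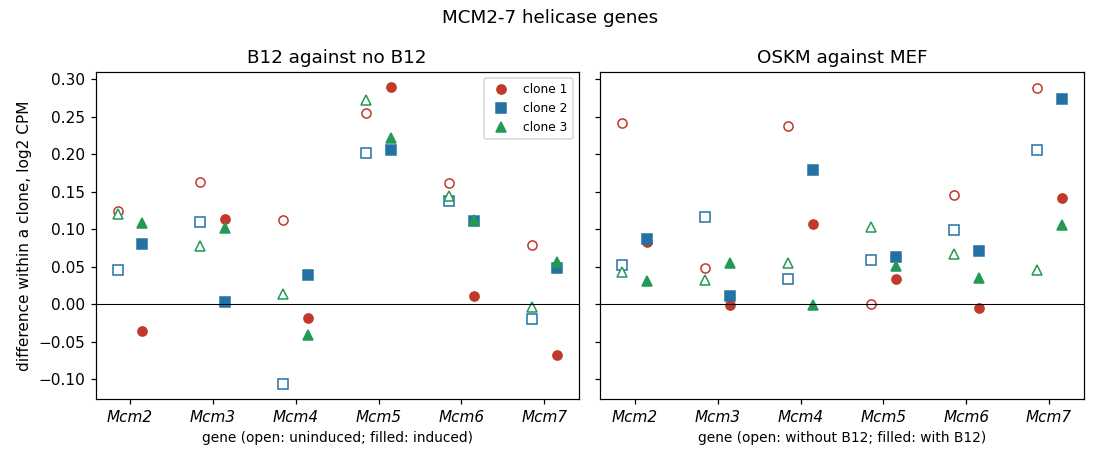
Difference in log2 CPM within each clone for the 6 MCM2-7 genes, with B12 (left; open, uninduced; filled, induced) and with induction (right; open, without B12; filled, with B12), with a colour and shape for each clone. All 6 points of Mcm5 on the left lie between 0.20 and 0.29, while those of Mcm4 and Mcm7 lie on both sides of 0.

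Among the other roles, no member passed with B12. Mcm10, which activates the loaded helicase, was at 11.2, 8.84 and 7.81 CPM in MEF, 12.9, 9.02 and 9.41 in MEF + B12, 11.7, 8.66 and 8.62 in OSKM, and 11.4, 9.84 and 10.1 on induction with B12, a difference of 0.15 ± 0.06 (adjusted p = 0.219). Tk1, which salvages thymidine, was at 41.2, 30.9 and 31.2 CPM in MEF, 42.0, 32.2 and 32.6 in MEF + B12, 41.5, 31.7 and 29.9 in OSKM, and 44.7, 35.5 and 34.4 on induction with B12. Tk1 was higher in 6 of 6 pairs, by 0.11 ± 0.03 (adjusted p = 0.0924), whereas the reductase subunits Rrm1 and Rrm2 had −0.04 ± 0.03 and −0.03 ± 0.04. The 6 polymerase and primase genes lay between −0.04 (Prim2) and 0.10 (Pola1). The histone chaperone subunits Chaf1a and Chaf1b had 0.05 ± 0.03 and 0.02 ± 0.06, and Slbp, which binds histone mRNA, had 0.05 ± 0.04.

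The 12 members with E2F letters in the window all had fitted values above 0 with B12, at a median of 0.10, and 2 were called. Of the 20 members without the letters, 15 were above 0, at a median of 0.049 for the 20, and 2 were called. Over all genes tested, 44.9% were above 0 and 3.84% were called. Within pairs, Mcm7 and Rfc3 of the 12 were higher in 3 of 6, Pola1 and Pold1 in 5, and the others in 6. Lig1 was among the 12 only through a window other than the one nearest its gene start. These values describe the members and no test was made. Of 50 other replication genes, 4 rose with B12 and none fell, against 3.84% of all genes called, most of which rose. The 4 were Dck, which phosphorylates deoxycytidine (0.31 ± 0.06, adjusted p = 0.0119), Gmnn, the histone chaperone Nasp (0.13 ± 0.03, adjusted p = 0.0399) and Uhrf1, which directs DNA methylation to new strands (0.15 ± 0.03, adjusted p = 0.0428). Of 17 E2F and RB regulators, E2f2 alone passed (0.33 ± 0.07, adjusted p = 0.0195). None of 20 mitosis genes passed in edgeR, and their median was 0.021. An unadjusted p under 0.05 was found in 4 of the 20, against 2964 of all 19174 genes tested. Macrophage markers moved with B12 as well: 10 of 11 rose, among them Mrc1 by 0.86 ± 0.08 (adjusted p = 0.000206). Cx3cr1 went the other way, by −0.45, and was not called. Its group means were 5.05 CPM in MEF and 3.64 in MEF + B12, and 3.47 in OSKM and 2.61 in OSKM + B12. Their summed level was 1179 to 2265 CPM in MEF, 1790 to 3002 in MEF + B12, 1188 to 2102 in OSKM, and 1818 to 2409 in OSKM + B12, and their part in the values of the members was not tested.

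The second question was whether induction of OSKM changed the replication genes. Averaged over both B12 states, 3 members rose, the helicase subunit Mcm7 by 13.1%, the primase catalytic subunit Prim1 by 14.9% and cyclin E2 (Ccne2) by 17.4%, and the transcription factor E2f1 fell (−10.8%). The share of members called, 4 of 41, was close to that of all genes, 9.73%, of which 856 rose and 1009 fell. With library totals in place of TMM factors 10 members were called, all of them higher, against 11.1% of all genes. The other 37 members lay between −0.08 (Fen1) and 0.16 (Pola1) on the log2 scale. The median of the members was 0.051, against −0.0028 for all genes. In the 2 single contrasts no member passed in edgeR, whether without B12 (0.073% of all genes called) or with B12 (0.104%). An unadjusted p under 0.05 was found in 7 and 8 of 41 members, against 3641 and 2854 of all 19174 genes tested. DESeq2 also called no member in either contrast, against 2.54% of all genes without B12 and 2.17% with B12. A total of 9 members were higher in all 6 pairs with induction, against 7.34% of all genes, and Gins3 and E2f1 were lower in all 6, against 8.26% of all genes. The 9 included Mcm5, whose level in clone 1 without B12 was 47.9 CPM in both states.

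Mcm7 (ENSMUSG00000029730, chr5:138164583-138172422), another helicase subunit, was at 58.6, 53.4 and 53.7 CPM in MEF, 61.9, 52.7 and 53.6 in MEF + B12, 71.5, 61.6 and 55.4 in OSKM, and 68.3, 63.7 and 57.7 on induction with B12. Each clone was higher when induced, though clone 3 when induced stayed below clone 1 when not. The difference was 0.18 ± 0.04 (adjusted p = 0.0236). In Mcm7, 26.8% of 31-base words are shared with other genes, mostly Gm5487, so its counts are uncertain. Prim1 (ENSMUSG00000025395, chr10:128015168-128030037), which makes the RNA primers, was at 14.98, 9.95 and 9.89 CPM in MEF, 15.1, 10.01 and 10.99 in MEF + B12, 18.01, 11.8 and 10.8 in OSKM, and 16.5, 12.1 and 12.3 on induction with B12. It rose by 0.20 ± 0.05 (adjusted p = 0.0346), with clone 1 above the other clones in every group. Its partner Prim2 was at 16.1, 13.6 and 13.7 CPM in MEF, 15.6, 14.9 and 13.1 in MEF + B12, 20.6, 14.8 and 14.0 in OSKM, and 16.7, 15.5 and 14.2 on induction with B12, a difference of 0.13 ± 0.06 (adjusted p = 0.16).

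Ccne2 (ENSMUSG00000028212, chr4:11191351-11204779), which activates CDK2 at the start of S phase, was at 14.7, 10.5 and 9.24 CPM in MEF, 13.8, 10.7 and 10.7 in MEF + B12, 17.4, 11.6 and 11.8 in OSKM, and 16.1, 12.9 and 11.9 on induction with B12. It rose by 0.23 ± 0.05 (adjusted p = 0.0255), while Ccne1 had 0.02 ± 0.04. E2f1 (ENSMUSG00000027490, chr2:154559407-154569892), an activator of S phase genes, was at 39.9, 37.5 and 33.1 CPM in MEF, 38.6, 38.4 and 36.0 in MEF + B12, 30.8, 32.5 and 32.4 in OSKM, and 35.9, 33.7 and 33.8 on induction with B12. All 3 OSKM libraries lay below the 3 MEF libraries, and the difference was −0.16 ± 0.04 (adjusted p = 0.0357). With library totals in place of TMM factors it was −0.12, with an adjusted p of 0.0913. None of the 4 calls held without clone 1 (adjusted p from 0.26 to 0.264) or without clone 2 (adjusted p = 0.426 in each), and without clone 3 Ccne2 was at 0.22 with an adjusted p of 0.0516. Without the OSKM library of clone 1, Mcm7 alone kept its call (0.16, adjusted p = 0.0473).

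**Figure D4:**
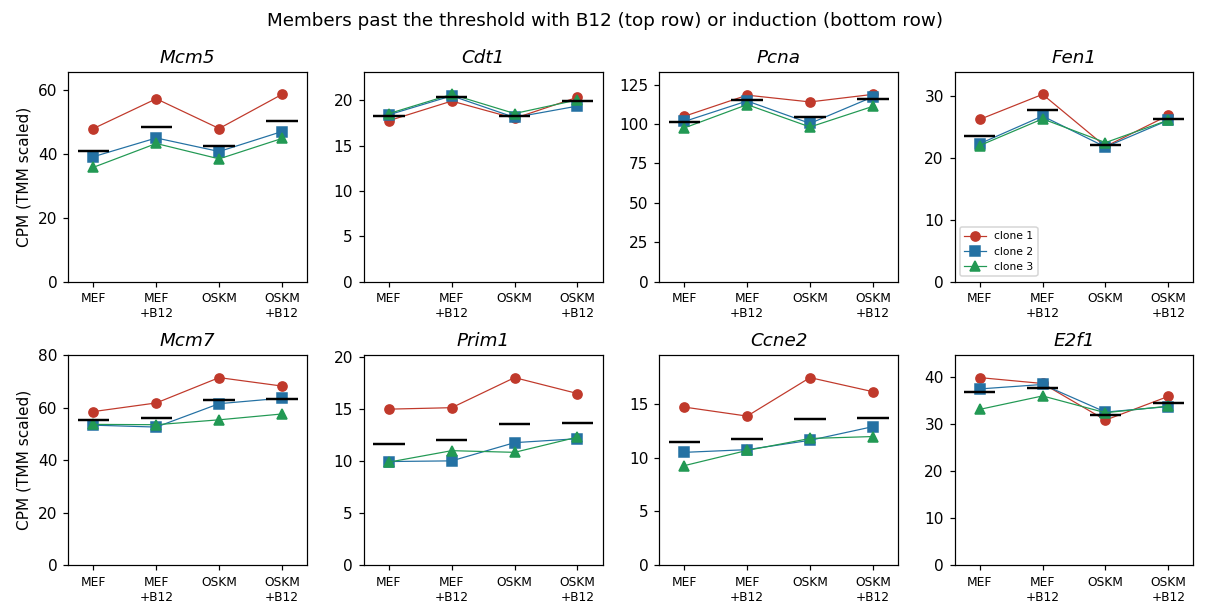
Level in each library (CPM, TMM scaled, axes from 0) of the 4 members that rose with B12 (top) and the 4 that changed with induction (bottom), with lines joining libraries of a clone and black bars at the group mean of 3 libraries. Within each clone and state the library with B12 is the higher one in the top row, and clone 1 lies above the other clones in Mcm5, Prim1 and Ccne2.

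By role, the 6 MCM2-7 genes and the 6 clamp and clamp loader genes all had fitted values above 0 on induction. Their medians were 0.080 and 0.069, and Mcm7 was the only one called. Over all genes tested, 49.1% were above 0 in the same fit. Within pairs, Mcm2, Mcm5, Mcm7, Rfc4 and Rfc5 were higher in 6 of 6, and Mcm3, Mcm4, Mcm6 and Rfc2 in 5. Pcna was higher in 4 of 6 pairs, and Rfc1 and Rfc3 in 3. Of the 6 helicase activation genes, Mcm10 alone was above 0, and their median was −0.023. The catalytic subunit of polymerase alpha, Pola1, was higher in 6 of 6 pairs by 0.16 ± 0.05 (adjusted p = 0.0551) and passed with DESeq2 (adjusted p = 0.0487). Fen1 had −0.08 ± 0.04 on induction and was higher in 1 of 6 pairs. Of the other 50 replication genes 4 passed, all higher, against 9.73% of all genes. They were Pold2 (0.20 ± 0.05, adjusted p = 0.0397) and Pold4 (0.16 ± 0.04, adjusted p = 0.0453), both accessory subunits of polymerase delta, Wdhd1, which links polymerase alpha to the helicase (0.15 ± 0.04, adjusted p = 0.0335), and Nasp (0.12 ± 0.03, adjusted p = 0.0384). Among the regulators the E2F partner Tfdp1 rose by 0.14 ± 0.04 (adjusted p = 0.0417), while cyclin D2 (Ccnd2, −0.23 ± 0.04, adjusted p = 0.0172) and Cdk6 (−0.24 ± 0.05, adjusted p = 0.0203) fell. No mitosis gene passed in edgeR, and 1 of 20 had an unadjusted p under 0.05, against 5144 of all 19174 genes tested. Of 12 fibroblast markers, 4 fell on induction (Col1a1, Col1a2, Pdgfra and Pdgfrb). Of 11 macrophage markers, Adgre1 and Csf1r fell and Itgam rose, at a median of −0.14 over the list. The endothelial markers Tek and Cdh5 rose, and Tek went from at most 42.3 CPM in uninduced libraries to 139, 118 and 46.1 CPM in OSKM, but Kdr had 0.01 ± 0.10, and Pecam1, Tie1 and Emcn were at most 0.279 CPM in every library. The part of these shifts in the values of the members was not tested.

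The response to B12 was also compared between states and between clones. No gene at all passed for the interaction, the B12 difference in induced minus that in uninduced cells (0% of all genes, in edgeR as in DESeq2; 273 genes and no member had an unadjusted p under 0.05 in edgeR). The members had interaction values between −0.13 (Gins1) and 0.14 (Rpa2) with a median of −0.0065 and SEs of up to 0.161. The B12 response differed between clones in no gene in edgeR (0%) and in 3 genes in DESeq2, none of them a member, and 294 genes but no member had an unadjusted p under 0.05 in edgeR. The induction response differed between clones in 2.15% of all genes and in none of the members by edgeR or DESeq2. In edgeR 2 of 41 members had an unadjusted p under 0.05, against 2842 of all 19174 genes tested. The B12 and induction comparisons use the same 12 libraries.

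The largest differences among the members were between clones. By an F test of the clone terms, 24 of 41 members differed between clones, against 37.8% of all genes, and all 24 were higher in clone 1 than in the mean of clones 2 and 3. The median of clone 1 minus that mean was 0.15 over the members, against 0.0066 over all genes, where 3755 of the 7239 called genes were higher in clone 1. In 14 members all 4 libraries of clone 1 lay above the 8 others (34.1%, against 7.98% of all genes), and in none did they lie below (against 8.88% of all genes). Clone 1, with 4 of the 12 libraries, held the highest library of 35 of the 41 members, a count that was not made over all genes. Without clone 1, no member passed the test between clones 2 and 3 in edgeR, against 6.88% of all genes, and 2 had an unadjusted p under 0.05. These values compare 3 cultures, and the year in the titles changes with clone 1.

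**Figure D5:**
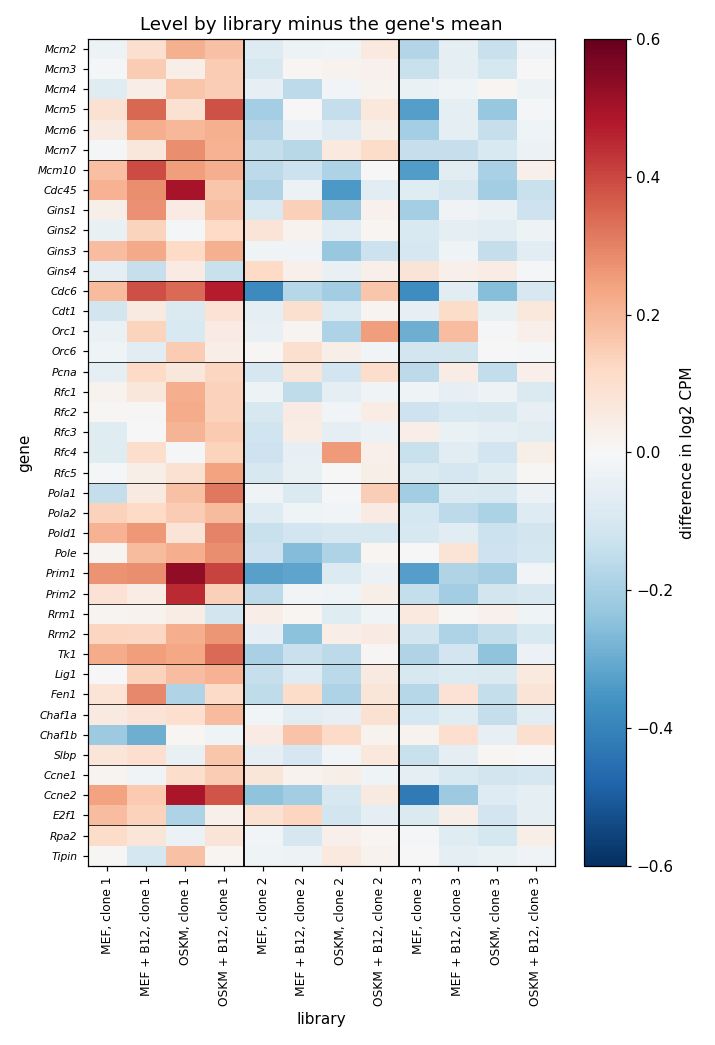
Level of each member in each of the 12 libraries as the difference in log2 CPM from the gene's mean, with genes grouped by role and libraries by clone. The 4 columns of clone 1 on the left are mostly red, as in Prim1, Cdc6 and Ccne2, while Cdt1, Rrm1 and Orc1 show no such block.

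The differences between clones were widest in Prim1 (0.56 ± 0.05, adjusted p = 6.55e-05), Cdc6 (0.52 ± 0.06), Ccne2 (0.48 ± 0.05) and Cdc45 (0.43 ± 0.08), the helicase cofactor. Cdc45 was at 12.3, 9.38 and 10.1 CPM in MEF, 12.9, 10.3 and 9.93 in MEF + B12, 14.9, 8.35 and 9.20 in OSKM, and 11.9, 10.1 and 9.68 on induction with B12. Tk1 had the lowest adjusted p, 2.46e-05, at 42.4 ± 1.59 CPM (SD, 4 libraries) in clone 1, 32.6 ± 2.04 in clone 2 and 32.1 ± 1.94 in clone 3. Rrm2, the regulated reductase subunit, was at 58.2, 51.3 and 49.2 CPM in MEF, 58.0, 44.8 and 46.7 in MEF + B12, 61.9, 54.7 and 48.0 in OSKM, and 63.8, 55.0 and 49.8 on induction with B12. Its partner Rrm1 was at 162, 161 and 164 CPM in clones 1, 2 and 3 (adjusted p = 0.821). Rrm2 shares 12% of its 31-base words with other genes and is uncertain.

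At the fork, Pold1, the catalytic subunit of polymerase delta, was at 42.9, 33.8 and 34.7 CPM in MEF, 44.4, 34.3 and 35.4 in MEF + B12, 39.2, 34.8 and 34.0 in OSKM, and 45.6, 34.7 and 34.4 on induction with B12. Every clone 1 library lay above every other one. Pola2, the regulatory subunit of polymerase alpha, was at 26.8, 23.1 and 22.7 CPM in MEF, 26.5, 23.9 and 21.8 in MEF + B12, 27.1, 24.1 and 21.3 in OSKM, and 27.8, 25.2 and 23.1 on induction with B12, with clone 1 again above all others. Mcm2, at 59.8, 57.8 and 54.0 CPM in MEF, 65.1, 59.6 and 58.7 in MEF + B12, 70.7, 59.9 and 55.7 in OSKM, and 69.0, 63.4 and 60.0 on induction with B12, overlapped between clones and still passed (0.17 ± 0.04, adjusted p = 0.0069). Gins3 was at 7.38, 6.37 and 6.06 CPM in MEF, 7.60, 6.41 and 6.38 in MEF + B12, 7.06, 5.55 and 5.89 in OSKM, and 7.53, 5.93 and 6.19 on induction with B12. It passed with 0.28 ± 0.05, whereas the GINS subunits Gins1, Gins2 and Gins4 did not, and Gins4 had −0.10 ± 0.04. Chaf1a, the large subunit of CAF-1, was at 38.3, 36.5 and 34.3 CPM in MEF, 39.1, 35.3 and 35.2 in MEF + B12, 39.7, 35.7 and 33.5 in OSKM, and 42.1, 39.3 and 35.2 on induction with B12. Its partner Chaf1b had −0.19 ± 0.06 in clone 1 against the others and did not pass (adjusted p = 0.0715).

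Members that rose with B12 did not all differ between clones. Cdt1 was at 19.0, 19.1 and 19.4 CPM in the means of clones 1, 2 and 3 (adjusted p = 0.766), Fen1 and Pcna did not pass either (adjusted p = 0.14 and 0.0603), and Mcm5 did (0.34 ± 0.03, adjusted p = 4.65e-05). Of the other lists, 32 of 50 replication genes differed between clones, against 37.8% of all genes, and 28 of the 32 were higher in clone 1. Of 17 E2F and RB regulators 13 differed, 10 of them higher and 3 lower in clone 1. All 20 mitosis genes differed and were higher in clone 1, at a median of 0.43. In 19 of them all 4 clone 1 libraries lay above the other 8, against 7.98% of all genes. Their summed level was 821 CPM in MEF of clone 1 against 606 and 671 CPM in clones 2 and 3. Macrophage markers differed between clones in 7 of 11 genes, against the same 37.8% of all genes. The part of proliferation or of other cells in the differences between clones was not tested.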

How the data were processed

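The authors isolated poly(A) RNA, made strand-specific libraries and sequenced read pairs. Alignment was by STAR (2.5.2 per the submitters' processing notes) to mm10 (GRCm38), and the authors then ran featureCounts for reverse-stranded pairs, so the deposited table holds unnormalized counts, 1 column for each library. The genes were named from GENCODE M21 on the same build, which matched 55480 of 55573 identifiers. Here, edgeR 4.0.16 in R 4.3.3 fitted the counts of 19174 genes kept by filterByExpr, with TMM factors and terms for group and clone. Tests were quasi-likelihood F tests with Benjamini-Hochberg adjustment over all genes and a threshold of 0.05. DESeq2 1.42.0, other scalings and filters, and left-out libraries were alternatives, and the script was tested on simulated data. The clone entered as a block, since each group has 1 library from every embryo and libraries of a clone deviated together from their group means (r from 0.27 to 0.687 over 18 pairs). Log2 CPM had a prior count of 2. RPKM used exon length. The members and lists were chosen with earlier results of these data known. Values of each library are given for the 20 members with the lowest adjusted p over all tests, and for E2f1 and Cdt1. Other lists are named by genes past the threshold, at most 5 a comparison. Without molecular identifiers, amplification error is outside the counting precision.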

Additional observations from a re-analysis of the deposited data

Results flagged for a closer look

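Rrm2 was singled out because its B12 difference had opposite signs in the 2 states in every clone. In induced clones 1, 2 and 3 it was 0.04, 0.01 and 0.05 in log2 CPM, and in uninduced clones it was −0.01, −0.20 and −0.08. The interaction in edgeR was 0.12, with an unadjusted p of 0.123 and an adjusted p of 1, and the opposite signs themselves were not tested. About 12% of the 31-base words of Rrm2 occur in other genes.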

How the results depend on the processing

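Without the replicate block, 0 members were called in induction averaged, B12 in OSKM, B12 in MEF and B12 averaged, against 0% of all genes in the first 3 and 0.469% in the last, and the medians of these comparisons lay between 0.049 and 0.074. With library totals 10 members were called on induction, all higher (11.1% of all genes), 3 with B12 in MEF (2.13%) and 6 with B12 averaged (4.59%), and the median log2 fold change of members was 0.11 for induction without B12, 0.093 with B12, 0.097 for induction averaged, 0.094 for B12 in OSKM, 0.081 in MEF and 0.080 averaged. That scaling moved the median of all genes on induction from −0.0028 to 0.043. DESeq2 called 2 members with B12 in OSKM (2.02% of all genes), 3 in MEF (2.45%) and 5 averaged (4.87%), and a fit of only the libraries compared called 0 in OSKM (0.583%) and 4 in MEF (4.58%). For B12 averaged, 3 members were called with no filter (2.51%) and 6 with at least 10 counts in every library (4.52%). Leaving out a clone, or the OSKM library of clone 1, gave 0 to 2 members called for induction without B12, 0 to 3 for induction averaged, 0 in each case for B12 in OSKM, 0 to 3 for B12 in MEF, 0 to 6 for B12 averaged and 0 to 26 for the level between clones. The shares of all genes called in these fits were 0.00518% to 6.87%, 0.0155% to 15.9%, 0% to 1.17%, 0% to 1.71%, 0.176% to 4.03% and 6.88% to 35.9%, in the same order. The lowest counts were without clone 2 for B12 averaged, without clone 1 or clone 2 for induction averaged and without clone 1 for the level between clones. The median ranged over these from 0.060 to 0.078 for B12 in OSKM, 0.047 to 0.061 for B12 in MEF and 0.062 to 0.069 for B12 averaged. It moved further on induction. Without B12 it was 0.054 with all libraries, 0.018 without the OSKM library of clone 1, 0.025 without clone 1 and 0.082 without clone 3. With B12 it was 0.041 to 0.059, and averaged 0.036 to 0.068. None of the 14 fold changes of single members recomputed under each alternative changed sign, and other named fold changes were not recomputed. Of 358 comparisons of a single member with an alternative, 265 kept their side of the threshold, 87 lost the call and 6 gained it. The lowest count of a member was 190, in Orc1, whose SE for B12 averaged was 0.080 against 0.03 for Mcm5.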

Other observations

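The members lie on 15 chromosomes of GRCm38, with 7 on chromosome 5 and 6 on chromosome 8. The difference between clone 1 and the mean of the other clones had a median of 0.20 over the 12 members with E2F letters in their promoter window. Over the 20 members without the letters the median was 0.13. The test between clones was passed by 9 of the 12 and 11 of the 20, against 37.8% of all genes. On induction the medians of the 12 and the 20 were 0.051 and 0.045. The 2 sets were not compared by a test. Of the other replication genes with a window, 31.7% held E2F letters.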
